A study of Mus musculus with 16 samples.

Results

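The genes described are the members of the 4 mouse Hox clusters, chosen as every gene on the array with a symbol made of Hoxa, Hoxb, Hoxc or Hoxd and a paralog number. They number 39 of the 20972 genes that could be named, with 11 in cluster A, 10 in cluster B, 9 in cluster C and 9 in cluster D. Messenger RNA was measured on 16 single-colour Agilent arrays, 1 for each of 16 pluripotent stem cell lines derived from 129/Ola mice, with 4 lines in each of 4 culture groups. The LIF_serum group, labelled Naive, was derived from embryos before implantation and kept in serum and LIF, a cytokine that sustains self-renewal. EpiSC lines came from the epiblast at embryonic day 6.5, grew in Activin A and bFGF and are labelled Primed. The 2i_LIF and 2iSB_LIF lines, both labelled Ground, came from pre-implantation embryos and grew with LIF and 2i (the usual name for a pair of kinase inhibitors), and 2iSB_LIF also received SB431542, an inhibitor of Activin and Nodal receptors. Passage numbers lay between 17 and 28, and the embryonic stage of origin and the medium cannot be told apart between EpiSC and the other groups.

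Hox genes encode homeodomain transcription factors that give cells their position along the head to tail axis. Within a cluster the genes lie in the order of their paralog number, and during development genes of low number are switched on earlier and further forward than genes of high number. In pluripotent cells the clusters are known as classical targets of Polycomb repression, in which PRC2 methylates histone H3 and PRC1 binds, while retinoic acid, caudal (Cdx) factors and trithorax complexes are known activators.

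A gene was taken as detected on an array where the scanner software marked its probe as well above background. Levels are in log2 units relative to the 75th percentile of the array's own processed signals, so 0 is the signal of a fairly bright probe and −7 is a dim one. Probes well above background made up 51.5% to 63.8% of all probes per array, and the lowest signal so marked (the floor of the array) lay between −6.17 and −5.54 on this scale on the 4 EpiSC arrays and between −5.46 and −4.44 on the 12 others. A probe of a given level was therefore marked as detected more readily in EpiSC. The arrays lay on 2 slides, and all EpiSC arrays were on slide 2. LIF_serum arrays 1 and 2, which carry a different sample code from arrays 3 and 4 in the labels, were on slide 1 and the other two on slide 2, so code and slide cannot be told apart in that group. The 5 pluripotency markers Pou5f1, Sox2, Nanog, Sall4 and Lin28a were detected on all 16 arrays, and 8 of 9 naive markers were lower in EpiSC than in LIF_serum. These are bulk samples, in which fewer cells of a type and less RNA per cell cannot be told apart.

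More Hox genes were marked as detected in EpiSC than in the other groups, but the floor was also lower on each EpiSC array. Of the 39 genes, 26, 29, 31 and 23 were detected on EpiSC arrays 1 to 4. The counts were 22, 21, 12 and 12 in LIF_serum, 22, 19, 18 and 18 in 2i_LIF, and 18, 16, 12 and 15 in 2iSB_LIF. Every EpiSC array therefore lay above every array of the other groups, while LIF_serum split into a higher pair (arrays 1 and 2) and a lower pair (arrays 3 and 4). The same share over all named genes was between 67.4% and 74.4% per array. At a common level of −4.44, the highest floor, the Hox counts were 21, 18, 23 and 16 in EpiSC, 20, 20, 12 and 12 in LIF_serum, 20, 16, 15 and 16 in 2i_LIF, and 14, 15, 9 and 11 in 2iSB_LIF. EpiSC then overlapped LIF_serum and 2i_LIF, and its lowest array (16) was above all of 2iSB_LIF (at most 15). Of all named genes 66.1% to 71.9% per array reached that level.

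**Figure D1:**
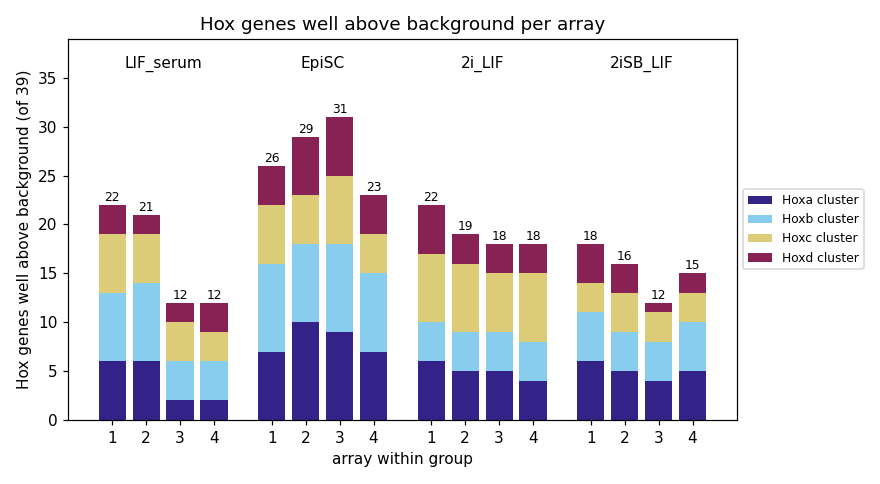
Number of the 39 Hox genes well above background on each array (y axis, from 0), stacked by cluster, for the 4 arrays of each group (x axis). EpiSC arrays hold 23 to 31 detected genes, and no array of another group holds more than 22, with the floor of the array lower on all EpiSC arrays.

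Detection by the mark of the scanner software, with the floor lower in EpiSC, differed with the place in the cluster. Of the 15 genes at positions 4 to 8, 12 were detected on all 4 EpiSC arrays, against 5 in LIF_serum, 6 in 2i_LIF and 4 in 2iSB_LIF. Of the 16 genes at positions 9 to 13, the group with most genes detected on all 4 arrays was 2i_LIF with 9, against 4 in LIF_serum, 5 in EpiSC and 5 in 2iSB_LIF. Of the 8 genes at positions 1 to 3, 5 were so detected in EpiSC and 2 in each other group. By cluster, 8 of 10 Hoxb genes and 7 of 11 Hoxa genes were detected on all EpiSC arrays, and 6 of 9 Hoxc genes on all 2i_LIF arrays. Over the whole set the shares were 28.2% in LIF_serum, 56.4% in EpiSC, 43.6% in 2i_LIF and 28.2% in 2iSB_LIF, beside 65.8%, 69.6%, 65.1% and 64.5% of all named genes.

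A few patterns of detection carry most of the description that follows. Hoxb4, Hoxb7, Hoxb9, Hoxc4 and Hoxd13 were among the genes detected on all 16 arrays. EpiSC was the one group with all 4 arrays detected for 10 genes, namely Hoxa2, Hoxa5, Hoxa11, Hoxb2, Hoxb3, Hoxb5, Hoxb6, Hoxb8, Hoxc5 and Hoxd4. For 3 genes, Hoxc11, Hoxc12 and Hoxd9, that group was 2i_LIF, and for 1 gene, Hoxd1, it was LIF_serum. Hoxb1 and Hoxd3, 2 genes, were detected on no array. Between them lie 9 genes that no group had on all 4 arrays: Hoxa10 and Hoxc8 on 1 and 2 EpiSC arrays and nowhere else, Hoxd10 and Hoxd12 on 3 EpiSC arrays each and nowhere else, and Hoxa4, Hoxa6, Hoxa13, Hoxc10 and Hoxd11 on scattered arrays of 2 or more groups.

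**Figure D2:**
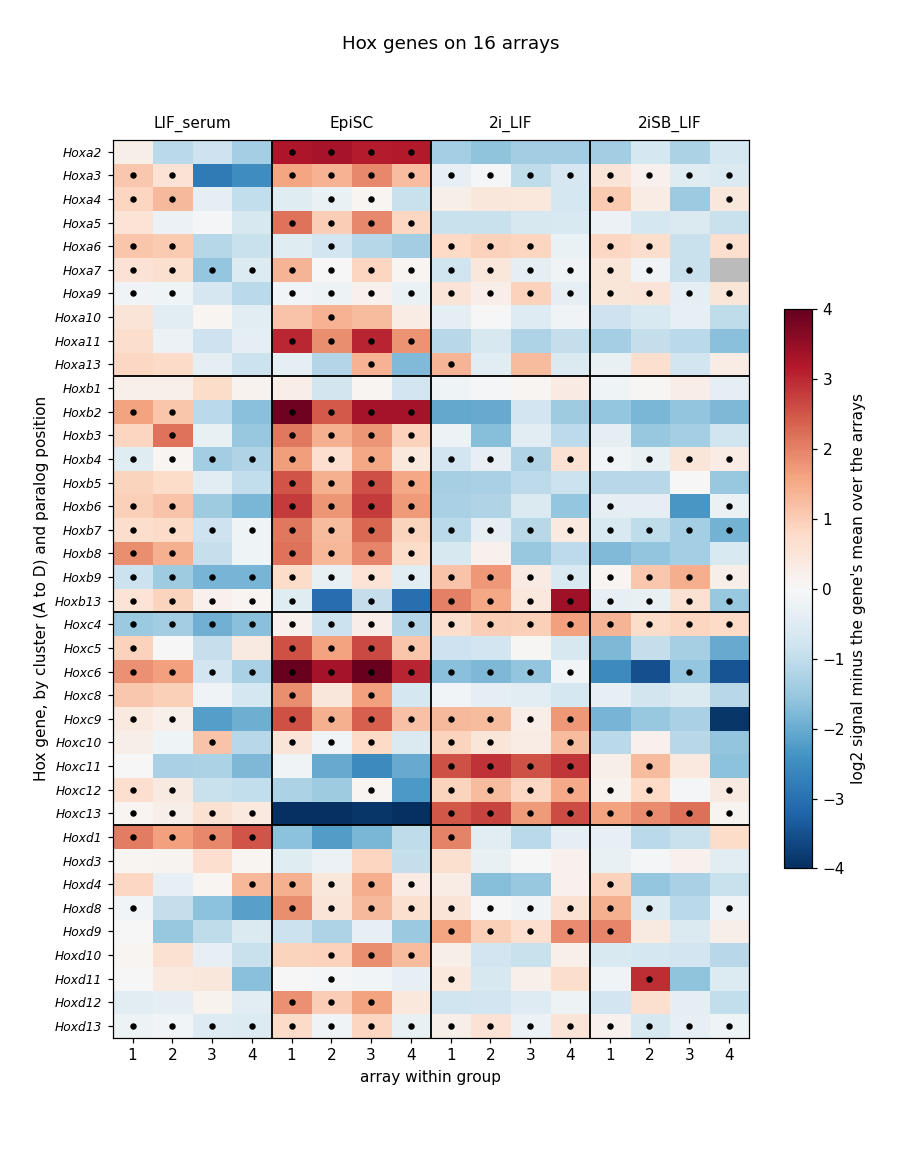
Log2 signal of each Hox gene shown less its own mean over the arrays (colour) on the 16 arrays (columns, 4 per group), with genes ordered by cluster and position (rows). A black dot marks an array on which the gene was well above background, and grey a spot left out as an outlier. Many rows at low and middle positions are red in EpiSC, and Hoxc11, Hoxc12 and Hoxc13 are red in 2i_LIF.

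Promoter windows from RefSeq on build GRCm38.p6 were matched for 22 Hox genes (24 windows). Windows of 4 genes are shown because they stand for 4 of these patterns: Hoxa2 (detected throughout EpiSC and in no other group), Hoxc4 (all arrays), Hoxd1 (throughout LIF_serum) and Hoxd9 (throughout 2i_LIF). Each is the 250 bases before the annotated start, read 5′ to 3′ on the strand of the gene, with every CG pair in capitals. The windows are chr6:52164832-52165081 (minus strand), chr15:103034145-103034394 (plus strand), chr2:74762730-74762979 (plus strand) and chr2:74697513-74697762 (plus strand).
Hoxa2: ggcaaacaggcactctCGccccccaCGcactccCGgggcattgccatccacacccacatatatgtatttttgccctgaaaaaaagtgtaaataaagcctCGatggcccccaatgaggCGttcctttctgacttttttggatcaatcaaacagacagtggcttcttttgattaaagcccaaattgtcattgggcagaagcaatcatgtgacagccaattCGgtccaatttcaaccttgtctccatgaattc
Hoxc4: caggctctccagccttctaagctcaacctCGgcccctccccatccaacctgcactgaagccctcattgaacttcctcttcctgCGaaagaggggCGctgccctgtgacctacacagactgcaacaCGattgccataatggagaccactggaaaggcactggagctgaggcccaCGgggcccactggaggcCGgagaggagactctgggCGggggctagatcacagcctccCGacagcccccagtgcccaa
Hoxd1: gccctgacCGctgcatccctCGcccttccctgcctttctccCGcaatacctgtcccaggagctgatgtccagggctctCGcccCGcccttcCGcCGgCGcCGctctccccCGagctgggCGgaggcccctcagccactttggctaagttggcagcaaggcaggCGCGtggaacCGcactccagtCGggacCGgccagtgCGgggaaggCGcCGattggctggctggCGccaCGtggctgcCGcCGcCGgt
Hoxd9: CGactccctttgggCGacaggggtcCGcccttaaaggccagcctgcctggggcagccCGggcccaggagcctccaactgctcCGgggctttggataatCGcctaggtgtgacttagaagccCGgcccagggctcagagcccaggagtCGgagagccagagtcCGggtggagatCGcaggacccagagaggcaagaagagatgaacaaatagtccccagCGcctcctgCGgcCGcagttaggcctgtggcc

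The CG pair is the letter pair that DNA methyltransferases act on, and CG-rich promoters are the usual sites of Polycomb binding. The Hox windows held a median of 12.5 CG pairs, beside a median of 6 over all 32851 windows of this length. The Hoxa2 window held 6, a number reached by 50.4% of all windows, and the Hoxc4 window held 8, reached by 43%. The Hoxd1 window held 24, reached by 12% of all windows, and the Hoxd9 window 13, reached by 31.5%. The letters TATAAA, searched on both strands, were found in 4 of the 24 Hox windows and in 12.4% of all windows.

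To be tested between groups, a gene had to be detected throughout 1 group or more. Of the 39 Hox genes 28 passed and 11 did not. The comparisons with LIF_serum share its 4 arrays, and those with EpiSC share its 4. Of the 28, 14 passed through exactly 1 group, the genes listed above for EpiSC, 2i_LIF or LIF_serum alone. That group was likely to be the brighter one for them. A mark of detection depends on the floor of the array, so such a gene need not differ in level. Counts of calls over the 28 are given as a description. The p-values of these 14 genes against the group that let them in are likewise descriptive. A gene was called at a limma adjusted p (Benjamini-Hochberg over all 15512 genes tested) under 0.05 with a difference of at least 2-fold. Where no array of the dimmer group was well above background, the fold is given as a bound against the lowest signal marked as above background on those arrays.

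Between primed and naive cells, most tested Hox genes at positions 1 to 9 were higher in EpiSC, and Hoxb13, Hoxc13 and Hoxd1 were lower. In EpiSC minus LIF_serum 16 of the 28 tested Hox genes rose and 3 fell, where 33.6% of all genes were called, 18% up and 15.6% down. The median difference was 1.38 over the 28 Hox genes and 0.07 over all genes. The groups did not overlap for 16 Hox genes higher and 3 lower in EpiSC, and for 58.8% of all genes. By position, 4 of 6 tested genes at positions 1 to 3 rose and 1 fell, 9 of 12 at positions 4 to 8 rose, and at positions 9 to 13 3 of 10 rose and 2 fell. By cluster, 5 of 7 rose in A, 6 of 9 in B with 1 fall, 4 of 7 in C with 1 fall, and 1 of 5 in D with 1 fall.

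Among the anterior genes, Hoxa2, which sets the identity of the second pharyngeal arch, had EpiSC values of −2.60, −2.54, −2.70 and −2.66 and LIF_serum values of −5.60, −6.91, −6.65 and −7.19. The 4 EpiSC lines lay within a narrow range (SD 0.07), far above all LIF_serum lines, none of which was above background. It was at least 4.57-fold higher in EpiSC (fitted difference 3.97, SE 0.27, adjusted p = 2.5e-08). Like Hoxb2 below, it entered the tests through EpiSC alone, so the p-value is descriptive. Hoxb2, which acts in the hindbrain, had values of −1.43, −2.86, −1.99 and −1.97 in EpiSC and −3.71, −4.19, −6.37 and −6.97 in LIF_serum. The groups did not overlap, as for 58.8% of all genes, and the first 2 LIF_serum arrays were the brighter ones (difference 3.25, SE 0.59, adjusted p = 0.00032). Hoxa3, needed for thymus and parathyroid, was at −2.29, −2.47, −1.96 and −2.64 in EpiSC and at −2.80, −3.30, −6.69 and −6.36 in LIF_serum. Here too the groups did not overlap, but LIF_serum arrays 1 and 2 lay just below EpiSC (difference 2.45, SE 0.70, adjusted p = 0.0083), and against those arrays alone the gene was not called.

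In the middle of the clusters Hoxc6, a gene of thoracic identity, had EpiSC values of 1.28, 0.33, 1.17 and 0.03 and LIF_serum values of −1.18, −1.38, −3.77 and −4.31. All EpiSC lines were above all LIF_serum lines, which again fell into a brighter and a dimmer pair. The difference was 3.36 (SE 0.68, 10.3-fold, adjusted p = 0.00079). Hoxb6 showed the same order, with −1.86, −2.87, −1.84 and −2.93 in EpiSC and −3.68, −3.51, −6.05 and −6.46 in LIF_serum (difference 2.55, SE 0.64, adjusted p = 0.0038). The Hoxb6 call was lost against LIF_serum arrays 1 and 2 alone. Hoxb4, known for its action in blood stem cells, was at −0.82, −1.80, −0.93 and −2.07 in EpiSC and at −2.95, −2.39, −3.87 and −3.69 in LIF_serum. It was detected on every array of both groups without overlap, and was 3.53-fold higher in EpiSC (difference 1.82, SE 0.41, adjusted p = 0.0018). The other called genes of this stretch were Hoxd8 (2.30), Hoxb5 (1.97), Hoxc5 (1.90), Hoxa5 (1.58), Hoxb7 (1.52) and Hoxc4 (1.22). Hoxb5 and Hoxa5 were on no LIF_serum array above background, which bounds Hoxb5 at 1.46-fold or more and gives no fold for Hoxa5. Hoxa7 (0.80, adjusted p = 0.18), Hoxb8 (1.00, adjusted p = 0.14) and Hoxd4 (0.43, adjusted p = 0.55) did not pass.

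Further towards the posterior end the directions parted. Hoxc9 was at −1.03, −2.14, −1.16 and −2.38 in EpiSC and at −3.16, −3.37, −5.76 and −5.53 in LIF_serum (difference 2.78, SE 0.66, adjusted p = 0.0026). Hoxa11, a gene of the forearm and the uterus, was at −2.66, −3.82, −2.64 and −3.88 in EpiSC and on no LIF_serum array above background, at least 2.97-fold higher (adjusted p = 1.8e-05). Both were higher in every EpiSC line, but the Hoxa11 call was lost with normexp background correction. Hoxb9 rose by 1.64 (SE 0.47, adjusted p = 0.0086). Against LIF_serum arrays 1 and 2 alone the calls of Hoxc9 and Hoxb9 were lost. Hoxc13, a hair and nail gene at the posterior end of its cluster, went the other way, with −2.19, −2.01, −1.66 and −1.86 in LIF_serum and no EpiSC array above background. It was at least 15.2-fold lower in EpiSC (fitted difference −4.48, SE 0.36, adjusted p = 1.2e-07). Hoxb13, the last gene of cluster B, had LIF_serum values of −2.38, −2.04, −2.75 and −2.85 and EpiSC values of −3.43, −5.97, −3.87 and −5.94. Arrays 2 and 4 of EpiSC were the dimmer ones and not above background (difference −2.30, SE 0.66, adjusted p = 0.0092). The Hoxb13 call was lost within slide 2, against LIF_serum arrays 3 and 4 alone and with the authors' deposited values. Hoxd1, at the opposite end of cluster D, was at −4.09, −4.50, −4.23 and −3.61 in LIF_serum and on no EpiSC array above background, at least 3.35-fold lower (adjusted p = 5.6e-05). The Hoxd1 call was also lost with normexp background correction.

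**Figure D3:**
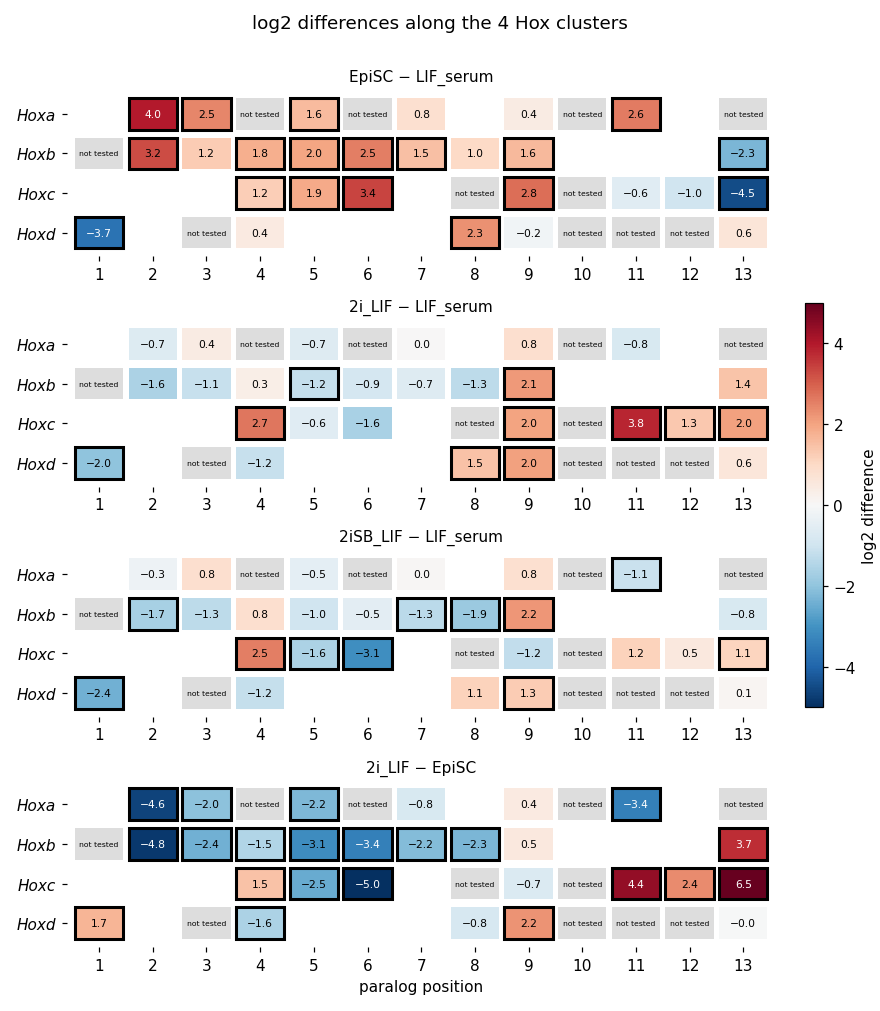
Log2 difference (number and colour, cut at 5 either way) of the tested Hox genes shown at their paralog positions (x axis) in the 4 clusters (rows), in 4 comparisons. Black frames mark called genes, grey boxes genes that were not tested, and gaps positions with no gene shown. In EpiSC − LIF_serum the framed red boxes lie mostly at positions 1 to 9, and in 2i_LIF − LIF_serum cluster C is framed red at positions 4, 9, 11, 12 and 13.

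LIF_serum arrays 1 and 2 were both brighter than arrays 3 and 4 for 20 of the 28 tested Hox genes, 20 of 24 fibroblast markers and 34.6% of all genes tested. Against arrays 1 and 2 alone 10 Hox genes were higher and 4 lower in EpiSC, and against arrays 3 and 4 alone, which share slide 2 with EpiSC, 19 were higher and 2 lower. The calls of Hoxa3, Hoxb6, Hoxb7, Hoxb9 and Hoxc9 were among those lost against arrays 1 and 2. With normexp background correction 8 Hox genes were higher and 2 lower. The calls lost there were those of Hoxa3, Hoxa5, Hoxa11, Hoxb5, Hoxb7, Hoxc4, Hoxc5, Hoxd1 and Hoxd8. Shares of all genes called under these settings are not given, so the counts describe the Hox genes only.

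Markers of fibroblasts, a cell type with Hox expression of its own, moved with this comparison. All 24 markers of the list were detected on every EpiSC array, and 21 of 24 were higher in EpiSC than in LIF_serum, 0 lower. The summed signal of 23 markers, in multiples of the array's 75th percentile, was 384 to 550 in EpiSC, 95.2 to 185 in LIF_serum, 4.19 to 5.95 in 2i_LIF and 3.98 to 4.78 in 2iSB_LIF. Of the 24 markers 8 to 15 were detected on 2i_LIF arrays and 9 to 15 on 2iSB_LIF arrays. Dcn, Lum, Postn, Twist2, Prrx1 and Col6a3 were on no ground state array above background, while Col1a1, Col5a1, Mmp2, Pdgfrb, Tagln and Thy1 were on all of them. Within EpiSC, array 1 or 3 had the highest value for 20 of 22 Hox genes detected on all 4 arrays and for all 24 fibroblast markers, beside 45.3% of all genes. Arrays 1 and 3 were picked as a pair after these values were seen. Whether fibroblasts were present, and their part in the Hox differences, was not tested. Of the other marker lists, 2 of 8 tested mesoderm markers were higher in EpiSC and 3 lower, 2 of 4 neural and 2 of 5 endoderm markers were higher, and 2 of 5 primed markers were higher, beside 18% of all genes higher and 15.6% lower.

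**Figure D4:**
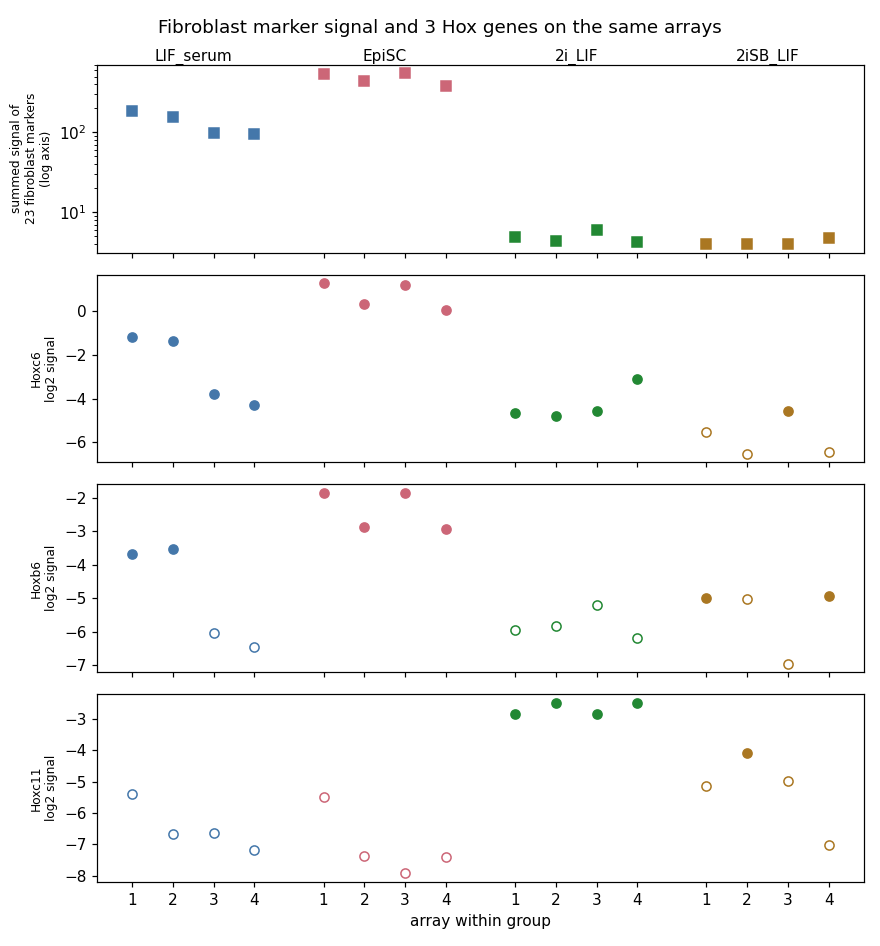
Summed signal of 23 fibroblast markers in multiples of the array's 75th percentile (top, log axis) and log2 signal of Hoxc6, Hoxb6 and Hoxc11 on the same 16 arrays (x axis, 4 per group). Open circles are not well above background. Hoxc6 and Hoxb6 are highest on EpiSC arrays 1 and 3, where the marker sum is 537 and 550, and Hoxc11 is highest in 2i_LIF, where the sum is 4.19 to 5.95.

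In ground state cells with 2i and LIF, the tested posterior genes of cluster C (Hoxc9, Hoxc11, Hoxc12 and Hoxc13) were called higher than in LIF_serum. Hoxc11 and Hoxc12 entered the tests through 2i_LIF alone. In 2i_LIF minus LIF_serum 8 of the 28 tested Hox genes rose and 2 fell, where 18.3% of all genes were called, 6.26% up and 12% down. Of the 7 tested genes of cluster C, 5 rose, and of the 7 tested genes of cluster A none was called (4 of these had an unadjusted p under 0.05, as did 41.1% of all genes). Of the 10 tested genes at positions 9 to 13, 6 rose. Among these Hoxc11, Hoxc12 and Hoxd9 entered the tests through 2i_LIF alone, so their p-values below are descriptive. The median difference was 2.03 over the tested Hoxc genes, −0.07 over the 28 and 0.02 over all genes. The groups did not overlap for 6 Hox genes, all higher in 2i_LIF, and for 27.2% of all genes. Hoxb5, one of the 2 falls, was above background on no array of either group, so 9 of the 10 calls had a brighter group detected on all its arrays (16.5% of all genes).

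Hoxc11 had 2i_LIF values of −2.84, −2.48, −2.83 and −2.50, close together, and LIF_serum values of −5.40, −6.67, −6.63 and −7.17, none above background. It was at least 4.45-fold higher in 2i_LIF (fitted difference 3.81, SE 0.59, adjusted p = 0.00027). Hoxc13 was at 0.22, 0.46, −0.56 and 0.36 in 2i_LIF against −2.19 to −1.66 in LIF_serum, without overlap and 4.14-fold higher (difference 2.05, SE 0.36, adjusted p = 0.00068). At the front of the same cluster, Hoxc4 had −1.16, −0.90, −0.91 and −0.24 in 2i_LIF and −3.35, −3.25, −3.80 and −3.56 in LIF_serum. It was detected on every array and was 6.44-fold higher (difference 2.69, SE 0.30, adjusted p = 2.3e-05). Hoxc5 and Hoxc6, which lie between them, went the other way in value and were not called, with Hoxc6 at −4.68, −4.81, −4.59 and −3.12 in 2i_LIF and array 4 above LIF_serum arrays 3 and 4.

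Hoxb9 had 2i_LIF values of −0.42, 0.20, −1.22 and −2.16 against −3.42 to −2.42 in LIF_serum, and was 4.45-fold higher (difference 2.15, SE 0.47, adjusted p = 0.0032). Hoxd9, its paralog in cluster D, was at −3.92, −4.55, −4.83 and −3.62 in 2i_LIF and above background on no LIF_serum array, at least 1.5-fold higher (adjusted p = 0.0045). Neither overlapped between the groups. Hoxc9 (2.03), Hoxd8 (1.46) and Hoxc12 (1.34) were also called, with adjusted p of 0.031, 0.042 and 0.036, and each lost the call under 10 or more of 23 other settings. Hoxd1 fell by 2.00 (SE 0.55, adjusted p = 0.013), although 2i_LIF array 1 at −4.14 lay among the LIF_serum values. The Hoxd1 call was lost in 4 of 23 other settings. The split of the Hox calls moved with the LIF_serum arrays used. No share over all genes is set beside the counts that follow, so a shift of all genes cannot be told apart there. Within slide 1, 4 Hox genes were higher and 7 lower, and with slide as a block 6 were higher and 6 lower. Within slide 2, which holds 1 array of 2i_LIF and 2 of LIF_serum, 9 were higher and 1 lower, and the single array is assumed there to vary like the other groups. Against LIF_serum arrays 3 and 4 alone, the ones on slide 2, 10 were higher and 1 lower, and against arrays 1 and 2 alone 4 were higher and 9 lower.

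**Figure D5:**
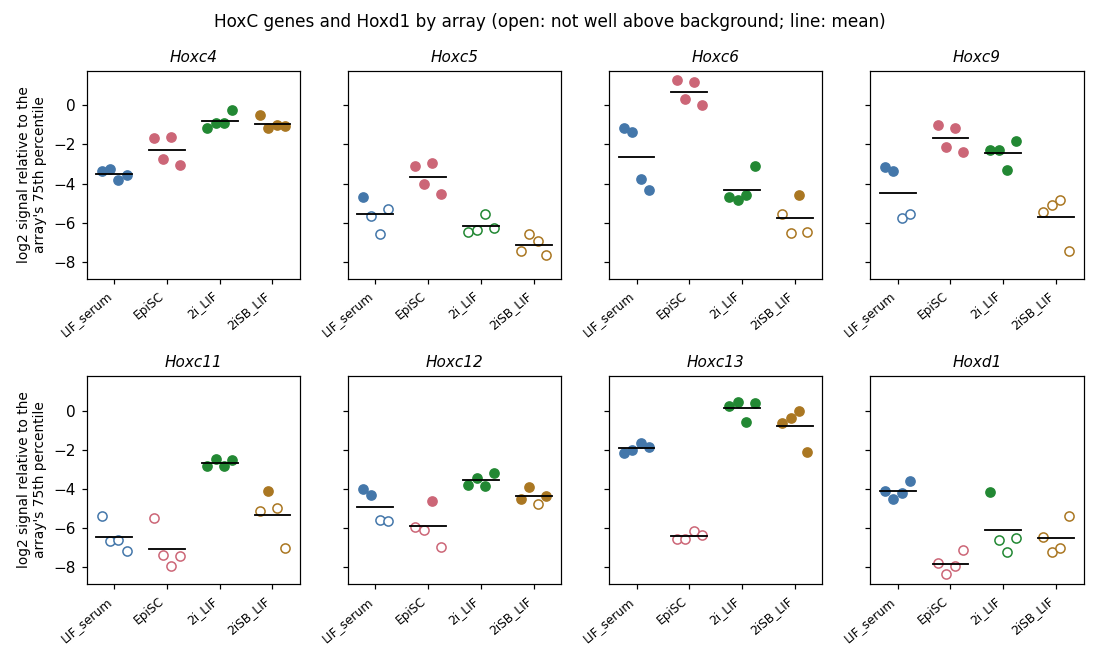
Log2 signal relative to the array's 75th percentile (y axis) of 7 Hoxc genes and Hoxd1 on each array, by group (x axis). Lines are group means of 4 arrays and open circles are not well above background. Hoxc6 is highest in EpiSC, Hoxc11, Hoxc12 and Hoxc13 have their highest means in 2i_LIF, and Hoxc13 is below background on every EpiSC array.

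In 2iSB_LIF, the group that also received SB431542, fewer Hox genes were called above LIF_serum than in 2i_LIF. The direct comparison of these 2 groups, given below, called no Hox gene. In 2iSB_LIF minus LIF_serum 4 of the 28 tested Hox genes rose and 7 fell, where 20.1% of all genes were called, 6.82% up and 13.3% down. Only 6 of these 11 calls had a brighter group detected on all its arrays, 3 up (Hoxc4, Hoxb9 and Hoxc13) and 3 down (Hoxc6, Hoxd1 and Hoxb7), where 18.1% of all genes met that rule. Hoxc4 was at −0.51, −1.15, −1.01 and −1.08, above all LIF_serum arrays by 2.55 on average (SE 0.30, adjusted p = 3e-05). Hoxb9 was at −1.46, −0.46, −0.09 and −1.31, likewise without overlap (difference 2.22, SE 0.47, adjusted p = 0.0024). These groups did not overlap for 29.6% of all genes. Hoxc13 was at −0.66, −0.36, −0.04 and −2.13, and array 4 lay within the LIF_serum range (difference 1.13, SE 0.36, adjusted p = 0.024). The Hoxc13 call was lost in 10 of 23 other settings, among them median centring, passage as a covariate and 3 fits without a single array.

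Hoxc6 in 2iSB_LIF was at −5.55, −6.53, −4.56 and −6.46, with 1 array above background and all below LIF_serum (difference −3.11, SE 0.68, adjusted p = 0.0031). Array 3 lay close to LIF_serum arrays 3 and 4 (−3.77 and −4.31), and within slide 2 the difference was −0.52. Hoxd1, above background on no 2iSB_LIF array, was at least 2.08-fold lower (adjusted p = 0.004). The Hoxd1 call was lost with normexp background correction, within slide 1 and with passage as a covariate. Hoxb7 fell by 1.33 (SE 0.44, adjusted p = 0.031), a call lost in 9 of 24 other settings, 5 of them fits without a single array (LIF_serum 1 or 2, or 2iSB_LIF 2, 3 or 4). With median centring 2 Hox genes were higher and 7 lower, and within slide 1, 1 was higher and 10 lower. Within slide 2, where 2iSB_LIF again has 1 array, 5 were higher and 2 lower. Against LIF_serum arrays 1 and 2 alone 2 were higher and 11 lower, and against arrays 3 and 4 alone 6 were higher and 2 lower. No share over all genes is set beside these counts with median centring, by slide or by LIF_serum arrays.

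Between the ground state groups, the Hoxc genes gave the widest gaps, and none passed the adjusted threshold. In 2iSB_LIF minus 2i_LIF limma called 0 of the 28 Hox genes, where 0.0838% of all genes were called. At an unadjusted p under 0.05 there were 7 Hox genes, 5 of them in cluster C, and 5.59% of all genes. Hoxc9 had 2iSB_LIF values of −5.44, −5.08, −4.85 and −7.45, none above background, against −2.28, −2.30, −3.29 and −1.82 in 2i_LIF, all above background. The groups did not overlap and the difference was −3.28 (95% interval −4.69 to −1.87, adjusted p = 0.094). Hoxc11 was at −5.15, −4.10, −4.98 and −7.02 in 2iSB_LIF, with 1 array above background and no overlap (difference −2.65, interval −3.91 to −1.40, adjusted p = 0.14). Hoxc12 did not overlap either, nor did Hoxc5, which was above background on no array of either group, so that its gap lies between background signals. With Hoxc5 this makes 4 genes, beside 2.15% of all genes.

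The other gaps were smaller or overlapped. Hoxb13 differed by −2.22 (interval −3.63 to −0.80, adjusted p = 0.43) and Hoxc6 by −1.47 (interval −2.93 to −0.01, adjusted p = 0.88). For Hoxc4 (−0.13, interval −0.78 to 0.52) and Hoxb9 (0.07, interval −0.93 to 1.07) the intervals held 0, and the Hoxc4 interval stayed within 2-fold. Hoxa7 has no value on 2iSB_LIF array 4, an outlier spot, so its mean there rests on 3 arrays. Hoxc11 was called with normexp correction (adjusted p = 0.031) and with the authors' deposited values (adjusted p = 0.039), and with passage as a covariate both Hoxc9 and Hoxc11 were called (adjusted p = 0.0056 and 0.015).

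Set against EpiSC, whose arrays the first comparison shares, both ground state groups were lower for most tested genes at positions 4 to 8. Both were higher for Hoxc13 at the posterior end of cluster C. The 2i_LIF group was also higher for Hoxc11 and Hoxc12, which entered the tests through 2i_LIF alone. In 2i_LIF minus EpiSC 7 of the 28 tested Hox genes rose and 15 fell, where 37.4% of all genes were called, 16.9% up and 20.6% down. In 2iSB_LIF minus EpiSC 5 rose and 13 fell, where 36.3% were called (16.2% up, 20.1% down). With median centring 1 Hox gene rose and 19 fell in that comparison. No share over all genes is set beside the median-centred counts, so a shift of all genes cannot be told apart there. At positions 1 to 3, 5 of 6 tested genes fell in 2i_LIF and 3 of 6 in 2iSB_LIF, and at positions 4 to 8, 9 of 12 and 8 of 12 fell. The exceptions were Hoxc4, which rose in both (1.47 and 1.33), and Hoxd1, which rose in 2i_LIF (1.71). Hoxd1 was detected on 1 2i_LIF array and no EpiSC array, so its gap lies mostly between background signals, and the groups overlapped. The Hoxd1 call was lost in 5 of 20 other settings, and the Hoxc4 calls were lost with median centring in both comparisons. At positions 9 to 13, 5 of 10 rose and 1 fell in 2i_LIF, and 4 rose and 2 fell in 2iSB_LIF. Of the 4 that rose in 2iSB_LIF, only Hoxc13 was detected on all 2iSB_LIF arrays. Hoxc11 and Hoxd9 were detected on 1 2iSB_LIF array each and Hoxc12 on 3. Hoxc11, Hoxd9 and Hoxc12 overlapped EpiSC there, and their calls were lost in 12, 8 and 7 of 20 other settings. Hoxc13 was at least 62.7-fold higher in 2i_LIF than in EpiSC (adjusted p = 1.2e-09) and at least 33.2-fold higher in 2iSB_LIF (adjusted p = 6e-09). Hoxc11 was at least 9.06-fold higher in 2i_LIF (adjusted p = 1.4e-05), Hoxd9 at least 3.07-fold (adjusted p = 0.00088), and Hoxb13 rose by 3.70 (SE 0.66, adjusted p = 0.00024).

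In the opposite direction Hoxc6 was 32.1-fold lower in 2i_LIF than in EpiSC (difference −5.00, SE 0.68, adjusted p = 1.8e-05), and in 2iSB_LIF by 6.47 log2 units (difference −6.47, adjusted p = 1.3e-06). Hoxb2 was at least 8.36-fold lower in 2i_LIF (adjusted p = 6.1e-06) and Hoxb6 at least 6.73-fold (adjusted p = 0.00035). For Hoxc9 the ground state groups differed in outcome, since it was not called in 2i_LIF minus EpiSC and was at least 11.2-fold lower in 2iSB_LIF (adjusted p = 0.00011). The direct comparison of those groups is the one given above, with an adjusted p of 0.094.

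Some genes had more than 1 probe. For Hoxb3 the second probe was detected on all EpiSC arrays and on no other array, with means of −3.25 in EpiSC and −6.25 in LIF_serum, a wider gap than at the first probe (−4.01 and −5.25, not called). The second Hoxa9 probe was detected on 1 EpiSC array where the first was detected on 4. The annotated spans of Hoxa3 overlap those of Hoxa4, Hoxa5 and Hoxa6, that of Hoxb3 overlaps Hoxb4, that of Hoxd3 overlaps Hoxd4 and that of Hoxd10 overlaps Hoxd11, so such probes may read transcripts of a neighbour.

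Hoxa7, Hoxa9 and Hoxd13, 3 of the 28 tested genes, were called in none of the 6 comparisons by limma. Hoxd13, a digit gene at the posterior end of cluster D, was detected on every array, with LIF_serum arrays at −3.93, −3.84, −4.24 and −4.26 and EpiSC arrays at −2.95, −3.86, −2.88 and −4.02. The 2i_LIF arrays read −3.48, −3.16, −3.95 and −3.20, and the 2iSB_LIF arrays −3.55, −4.37, −4.05 and −3.89. Its groups overlapped throughout, and its difference between EpiSC and LIF_serum was 0.64 (95% interval 0.05 to 1.23, adjusted p = 0.063). For Hoxa7 the group means were −2.60 (LIF_serum), −1.80 (EpiSC), −2.60 (2i_LIF) and −2.56 (2iSB_LIF, 3 arrays). Hoxa9 had means of −4.87, −4.46, −4.03 and −4.09 in the same order. Its limma adjusted p passed the threshold in 2i_LIF (0.035) and in 2iSB_LIF (0.045) against LIF_serum, but the differences of 0.85 and 0.79 were under 2-fold.

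Some genes left out of the tests still had array values with a pattern. Hoxa6 was detected on LIF_serum arrays 1 and 2 (−3.68 and −3.76), 3 arrays each of 2i_LIF and 2iSB_LIF and 1 of EpiSC, the reverse of its neighbours Hoxa5 and Hoxa7, whose means were highest in EpiSC. Hoxd12 was detected on EpiSC arrays 1, 2 and 3 (−4.88, −5.74 and −5.11) and nowhere else. Hoxd11 reached −2.46 on 2iSB_LIF array 2 and lay at −4.72 or below on all other arrays. No test was made of these genes.

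Hox proteins bind DNA with the TALE homeodomain cofactors Meis, Pbx and Pknox. In EpiSC minus LIF_serum 6 of these 9 genes rose and 1 fell, beside 18% and 15.6% of all genes, led by Pknox2 (4.15, SE 0.56, adjusted p = 2.3e-05), Meis2 (3.93, SE 0.82, adjusted p = 0.00097) and Meis3 (2.14, SE 0.16, adjusted p = 5.7e-08). In 2i_LIF minus LIF_serum 1 rose, Meis2 (3.48, adjusted p = 0.0053), and 1 fell, Pbx4 (−1.12, adjusted p = 0.026), and the same counts were found in 2iSB_LIF minus LIF_serum. The shares over all genes were 6.26% up and 12% down in 2i_LIF and 6.82% up and 13.3% down in 2iSB_LIF.

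Retinoic acid is made by retinol and retinal dehydrogenases, bound by Rar and Rxr receptors and broken down by Cyp26 enzymes. In EpiSC minus LIF_serum 10 of 18 tested pathway genes rose and 3 fell, where 18% of all genes rose and 15.6% fell. Cyp26a1 rose by 4.04 (SE 0.83, adjusted p = 0.00088), Dhrs3, which turns retinal back to retinol, by 3.98 (SE 0.42, adjusted p = 2.2e-06) and the receptor Rarb by 3.49 (SE 0.44, adjusted p = 1.1e-05). Stra8, a germ cell gene switched on by retinoic acid, was above background on no EpiSC array and at least 539-fold lower (adjusted p = 3.8e-10). In 2i_LIF minus LIF_serum 0 rose and 4 fell, among them Cyp26a1 (−2.90, adjusted p = 0.016) and Cyp26b1 (−2.34, adjusted p = 0.0014), and in 2iSB_LIF minus LIF_serum 0 rose and 2 fell, where 12% and 13.3% of all genes fell.

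Of 7 tested ParaHox, caudal and tail bud genes, 4 rose and 2 fell in EpiSC minus LIF_serum (18% and 15.6% of all genes). Fgf8, a signal of the primitive streak, rose by 2.81 (SE 0.50, adjusted p = 0.00025) and T by 2.01 (SE 0.72, adjusted p = 0.028), while the caudal factor Cdx1 fell by 4.31 (SE 0.55, adjusted p = 1.3e-05). In 2i_LIF minus LIF_serum 1 rose and 3 fell, with T at −3.06 (adjusted p = 0.0052) and Fgf8 at −2.16 (adjusted p = 0.0045), and in 2iSB_LIF minus LIF_serum 1 rose and 4 fell, where 12% and 13.3% of all genes fell.

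In EpiSC minus LIF_serum, where 33.6% of all genes were called, the shares called among Polycomb and trithorax genes were near or below that background. Of the 11 PRC2 genes 0 rose and 3 fell in EpiSC minus LIF_serum, namely the methyltransferase Ezh1 (−2.13, adjusted p = 2.6e-05) and the accessory subunits Phf19 (−1.56, adjusted p = 0.005) and Mtf2 (−1.34, adjusted p = 0.00015). Of the 18 PRC1 genes 5 rose and 1 fell, with Bmi1 at 2.50 (adjusted p = 2.3e-06) and Phc2 at 2.07 (adjusted p = 6.9e-06) up and Cbx7 at −2.08 (adjusted p = 0.011) down. Bmi1 also rose in 2i_LIF (2.54, adjusted p = 1.2e-05) and 2iSB_LIF (2.90, adjusted p = 3.1e-06) against the same LIF_serum arrays. In 2i_LIF minus LIF_serum 3 PRC1 genes rose and 2 fell, and 1 PRC2 gene rose and 1 fell, beside 18.3% of all genes called. Of 13 tested trithorax genes 3 rose and 1 fell in EpiSC minus LIF_serum, led by Kdm6b, a demethylase of the Polycomb mark (1.93, SE 0.18, adjusted p = 6.6e-07), and 1 rose in 2i_LIF minus LIF_serum, Wdr5 (1.21, adjusted p = 2.2e-05).

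Of the genes beside the clusters 9 were tested, and in EpiSC minus LIF_serum 0 rose and 2 fell, below the 33.6% of all genes called, namely Ttll6 (−3.63, SE 0.43, adjusted p = 7e-06) and Skap1 (−1.59, adjusted p = 0.048), which both lie by cluster B. Evx1, the homeobox gene beside Hoxa13, rose in 2i_LIF minus LIF_serum (3.45, SE 1.05, adjusted p = 0.023) and was at least 12.1-fold higher in 2i_LIF than in EpiSC (adjusted p = 0.00067). Of the noncoding RNAs of the clusters 1 was tested, Hoxa11os, the antisense partner of Hoxa11. It rose in EpiSC minus LIF_serum by 1.43 (SE 0.33, adjusted p = 0.0019), in the same direction as Hoxa11.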

How the data were processed

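Total RNA (100 ng) of 16 lines was labelled with Cy3 on 16 arrays, 4 per group by the labels. The deposited scanner files hold intensity values from Agilent Feature Extraction 10.7.1.1, per the file headers, with local background subtracted and no scaling between arrays. The authors' deposited series table holds log2 values made with limma and Feature Extraction, per the submitters' processing notes. Its columns follow the scanner signal in direction, with medians of 7.51 to 7.58, and how it was normalized is not given in the sources used. Precision is limited by the small number of arrays.

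Of the 62976 spots of an array 3671 control spots were left out, and 100 to 321 outlier spots were treated as missing. No spot was saturated. Of 55681 probes, 27656 were named through their RefSeq accession in a table of GRCm38.p6, while the array header names mm9. Signals were put on the log2 scale and the 75th percentile of each array subtracted, with spots of a probe averaged. Probes had to be well above background on each array of 1 or more groups, and the brightest stood for its gene (15512 genes). Group means over all 16 arrays were fitted with limma 3.58.1 (lmFit, eBayes) in R 4.3.3, and the code was tested on simulated data. A call needs a Benjamini-Hochberg adjusted p-value under 0.05 and a ratio of at least 2-fold. A bound compares the brighter mean with the dimmer arrays' lowest signal well above background, or their own signal where higher.

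Hox members and the 15 lists (174 memberships, 146 tested) were chosen with earlier results of these data known. Any Hox gene may be named except 1 that is not reported here by name or in the maps, and from each list up to 4 called members per comparison of largest difference, detected on all arrays of the brighter group. The 6 fibroblast markers named as undetected, the 6 named as detected and the common level of detection were chosen after their values were seen. Promoter sequences are RefSeq's. Same-numbered lines were not treated as pairs: of 24 correlations of their deviations, 7 were over 0.1 (range −0.6 to 0.4). Slide enters these correlations too, so they cannot settle whether lines pair. The alternatives were median centring, quantile normalization, normexp on the median spot signal (offset 50), the authors' values, filters, probe rules, slide, passage, replicate number, and each array left out. Probes named by genome position inside the clusters were not analysed here.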

Additional observations from a re-analysis of the deposited data

Results flagged for a closer look

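Values of each Hox gene detected throughout a group were checked for a single array far from the other 3, by the gap to the nearest array divided by the range of the group (Dixon's test at its 95% critical value). Of 60 combinations of gene and group, 2 exceeded that value, and chance gives about 1 in 20. Hoxc6 on 2i_LIF array 4 was at −3.12, above the nearest array at −4.59 (ratio 0.874). That array is the one of its group on slide 2. Hoxa9 on 2iSB_LIF array 3 was at −4.72, below the nearest array at −3.89 (ratio 0.965), and it too is the one array of its group on slide 2. The part of the slide was not tested.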

How the results depend on the processing

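Of 168 pairs of Hox gene and comparison, 84 were followed through the settings, the 80 that were called and 4 of 2iSB_LIF minus 2i_LIF that were not, so mostly large differences. None of these changed sign in 1801 combinations of pair and setting, of which 1576 kept their side of the threshold, 220 lost the call and 5 gained it. Counts of called Hox genes in the order EpiSC minus LIF_serum, 2i_LIF minus LIF_serum, 2iSB_LIF minus LIF_serum, 2iSB_LIF minus 2i_LIF, 2i_LIF minus EpiSC and 2iSB_LIF minus EpiSC were 19, 10, 11, 0, 22 and 18. They were 10, 4, 3, 1, 12 and 9 with normexp background correction. With only probes well above background on all 16 arrays, 7 Hox genes were tested and the counts were 5, 2, 3, 0, 4 and 2, since fewer genes were tested. The authors' deposited values gave 6 in 2i_LIF minus LIF_serum, 6 in 2iSB_LIF minus LIF_serum and 1 in 2iSB_LIF minus 2i_LIF. Within slide 2 the count was 7 in 2iSB_LIF minus LIF_serum (1 array against 2) and 3 in 2iSB_LIF minus 2i_LIF (1 against 1), with the spread taken from the other groups of that slide. EpiSC has no array on slide 1, so that fit was not run for it. Passage as a covariate gave 2 in 2iSB_LIF minus 2i_LIF. A fit of only the 2 groups compared gave 7 in 2iSB_LIF minus LIF_serum. Requiring detection on all arrays of the brighter group, a rule chosen after seeing the data, gave 6 there. Except for these, the cause of the changes was not tested. The counts describe the Hox genes only, without the share of all genes called under each setting.

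Leaving out each array in turn gave 19 to 20, 6 to 11, 7 to 12, 0 to 0, 20 to 22 and 17 to 19 in the same order. The count of 6 came without 2i_LIF array 2, and that of 7 came without LIF_serum array 1, LIF_serum array 2 or 2iSB_LIF array 2. Median detection per array (16.5 in LIF_serum, 27.5 in EpiSC, 18.5 in 2i_LIF, 15.5 in 2iSB_LIF) ranged over 12 to 21, 26 to 29, 18 to 19 and 15 to 16. At the common level of −4.44, chosen after seeing the data, the medians were 16, 19.5, 16 and 12.5. With the replicate number as a block the counts were 19, 8, 11, 0, 22 and 21. Median centring moved the median of all genes in EpiSC minus LIF_serum from 0.07 to 0.61, with 20 Hox genes higher and 3 lower. Values near background limit 14 of the 28 tested genes, which were above it on all arrays of 1 group only.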
